A study of Mus musculus with 4 samples.

Results

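Gene levels in mouse embryonic stem cells without Dnm1l were set against those in their parental line, for every protein-coding gene that the deposited table measured well enough to compare. Dnm1l-/- cells carry a knockout of Dnm1l made in e14tg2a cells, and the control is the unedited e14tg2a line, a male line of strain 129/Ola. Both were at passages 30 to 35 and were grown on mouse embryonic fibroblast feeders in serum medium with leukemia inhibitory factor. The series also holds a Fis1-/- and an Mff-/- line made in the same parent, so 2 of its 4 libraries enter the comparison. How the knockouts were made and whether each line is a single clone are not given in the sources used here. With 1 library per line the spread between cultures is unknown. No test was therefore made, and each value below describes these libraries and not the genotypes at large.

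Levels are FPKM, fragments scaled to the length of the transcript and to the number sequenced in the library, summed over the transcripts of a gene. The compared genes are the 10687 of 20577 protein-coding ones whose level averaged 1 FPKM or more across all 4 libraries. A difference is log2(FPKM + 1) in Dnm1l-/- minus that in e14tg2a, so that 1 or more counts as at least 2-fold higher and -1 or less as at least 2-fold lower. The added 1 FPKM makes differences of low genes smaller than their ratios. The spacing of low values put the depth at about 35100000 fragments in Dnm1l-/- and 37600000 in e14tg2a, and at those depths a transcript of 2000 bases at 1 FPKM corresponds to 70.2 and 75.2 fragments.

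Dnm1l encodes Drp1, a dynamin-related GTPase of the cytosol. Receptors on the mitochondrial outer membrane, among them Mff, Fis1, Mief1 and Mief2, recruit it, and it assembles into rings that constrict and divide mitochondria and peroxisomes. Mouse embryonic stem cells have small, rounded mitochondria with few cristae and draw much of their energy from glycolysis, and stress inside mitochondria is known to reach the nucleus through the transcription factor ATF4.

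The targeted gene was examined first. Dnm1l, on chromosome 16, summed to 22.9 FPKM in Dnm1l-/- against 35.0 FPKM in e14tg2a, a difference of -0.59 and 65.4% of the control level. That sum includes a noncoding transcript of the gene, at 3.75 FPKM in Dnm1l-/- against 10.5 FPKM in e14tg2a, and over the coding transcripts alone the difference was -0.34. Fis1 and Mff, which are intact in these cells by their label, stood at 96.4 and 29.2 FPKM in Dnm1l-/- and at 103 and 28.9 FPKM in e14tg2a. The RNA of the targeted gene was lower but not lost, and RNA that remains says nothing about the protein.

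Cell identity was checked against marker genes. The 8 stem cell markers, among them Pou5f1, Sox2 and Nanog, summed to 5355 FPKM in Dnm1l-/- and 5733 FPKM in e14tg2a, and every one was above 0.1 FPKM in both libraries. The 9 fibroblast markers, which feeder cells would carry, summed to 8.92 FPKM in Dnm1l-/- and 9.39 FPKM in e14tg2a. Markers of mesoderm came to 1.04 FPKM in Dnm1l-/- and 1.12 in e14tg2a, and those of extraembryonic endoderm to 1.33 FPKM in Dnm1l-/- and 3.38 in e14tg2a. Markers of trophoblast came to 6.79 FPKM in Dnm1l-/- and 3.34 in e14tg2a, and those of the neural lineage to 26.9 FPKM in Dnm1l-/- and 76.7 in e14tg2a. Stem cell transcripts outweighed every other set in both libraries, and the neural sum was made up mostly of the neuronal tubulin gene Tubb3.

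Past 2-fold, 268 genes (2.51%) were higher and 224 (2.1%) lower in Dnm1l-/-, which is 4.6% of all compared. The median difference was 0.01, a range from -0.70 to 0.68 held the middle 90% of genes, and 86.3% of genes were within 1.5-fold. At least 4-fold apart were 52 genes on the higher side and 22 on the lower side. Among the higher genes 81 were below 1 FPKM in e14tg2a, and among the lower genes 67 were below 1 FPKM in Dnm1l-/-. Most compared genes were thus within 1.5-fold of each other in the 2 libraries, and larger differences lay with few genes.

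**Figure D1:**
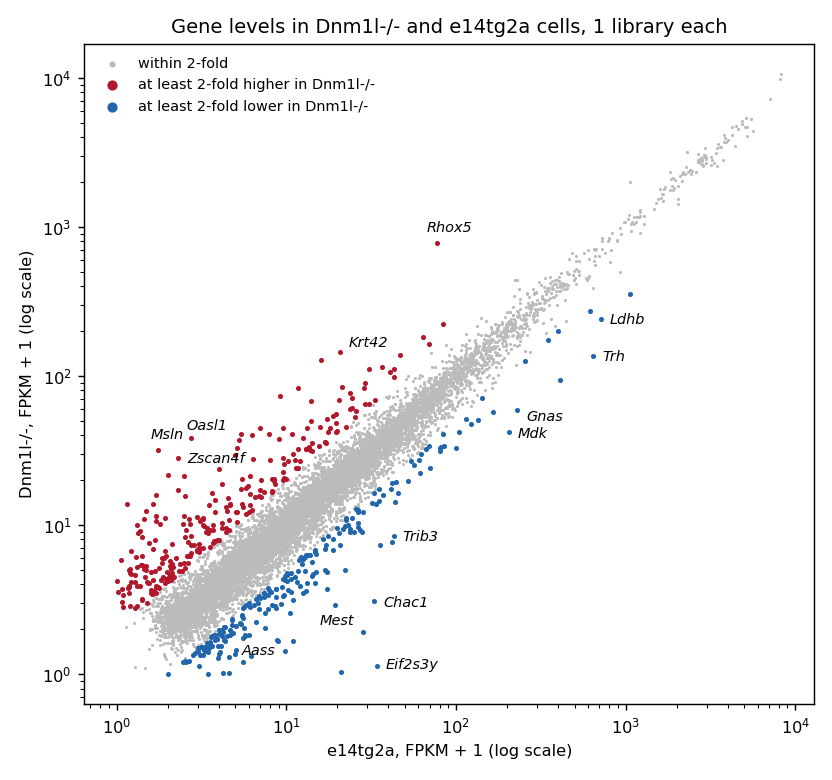
Level of every compared gene (FPKM + 1, log scales) in Dnm1l-/- cells on the y axis against e14tg2a cells on the x axis, 1 library each, with 268 genes at least 2-fold higher in red, 224 at least 2-fold lower in blue and all others in grey. Most points lie along the diagonal, Rhox5 stands apart among abundant genes on the higher side, and Trh, Ldhb, Gnas and Mdk on the lower side.

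Some of the lower genes lay together on the chromosomes. With genes placed in bins of 10 Mb by their start (mm10), 193 bins held at least 20 compared genes, and 4 of these had a median of -0.5 or less: chromosome 2 from 160 to 180 Mb and chromosome 6 from 80 to 100 Mb. The 109 genes of the chromosome 2 stretch had a median of -0.72, 92.7% of them were below 0, and 11 were lower by 2-fold or more and 0 higher. The other 740 genes of that chromosome had a median of 0.02. In the chromosome 6 stretch, 97 genes had a median of -0.60, with 91.8% below 0, 11 lower and 0 higher, while the other 375 genes of chromosome 6 had a median of -0.03.

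Over chromosome 8 as a whole, 594 genes had a median of -0.30, 83.2% were below 0, and all bins of that chromosome with a value shared the sign. The lowest bin outside chromosome 8 and the 2 stretches was at -0.31, also on chromosome 6, and the highest of all bins was at 0.30, on the X chromosome. Against the same control library, the medians in Fis1-/- were -0.68 for the chromosome 2 stretch, -0.49 for the chromosome 6 stretch and -0.29 for chromosome 8, and in Mff-/- they were 0.12, -0.27 and -0.33. The bins were singled out after their values were seen, and nothing but the RNA was measured here.

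These regions hold genes that are named here or counted in the lists below. Gnas, which encodes a G protein alpha subunit, Cebpb, a transcription factor gene of the stress response, and Atp5e, a subunit gene of ATP synthase, lie in the chromosome 2 stretch. Trh, the gene of thyrotropin-releasing hormone, Hmces, which encodes a protein that shields abasic sites in DNA, and Mthfd2, a mitochondrial folate enzyme gene, lie in the chromosome 6 stretch, and Herpud1 and Tubb3 on chromosome 8. Trh was at 135 FPKM in Dnm1l-/- against 645 FPKM in e14tg2a, and Hmces at 56.3 FPKM in Dnm1l-/- against 163 in e14tg2a. With chromosome 8 and both stretches left out, 9887 genes remained, of which 262 were at least 2-fold higher and 183 at least 2-fold lower. Counts outside these regions are given below for the stress, amino acid, neural and p53 lists, and the part of the regions in any list's value was not tested.

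**Figure D2:**
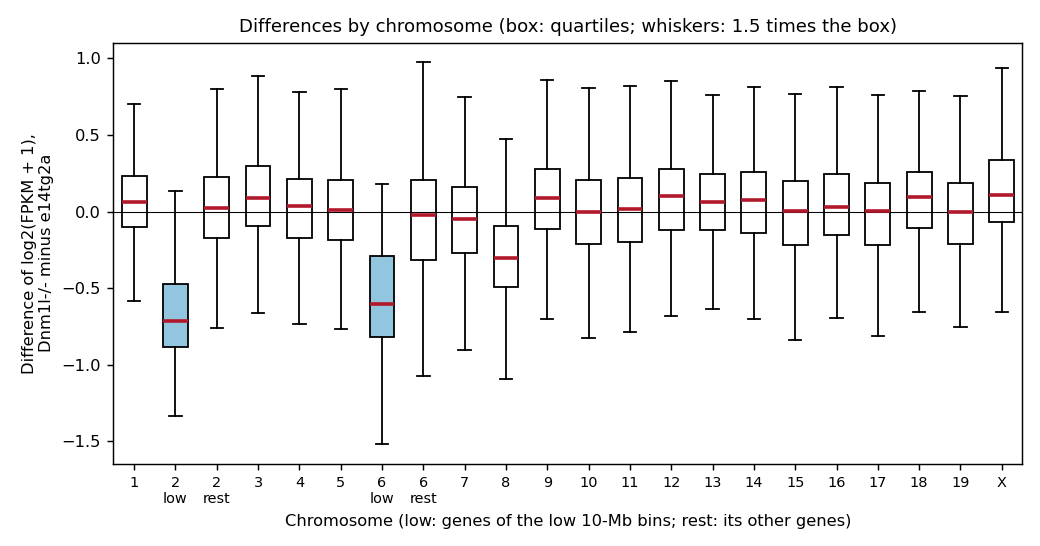
Differences of log2(FPKM + 1), Dnm1l-/- minus e14tg2a, for the compared genes of each chromosome but Y. Boxes are quartiles, red bars are medians, whiskers are at most 1.5 box lengths, and single outlying genes are not drawn. The blue boxes are the 109 genes of chromosome 2 and the 97 genes of chromosome 6 that lie in low bins, with medians of -0.72 and -0.60, and chromosome 8 as a whole is at -0.30. Chromosome Y, with 3 compared genes and a median of -2.18, is not drawn. Chromosomes 2 and 6 are each split into low and other genes, and as wholes their medians were -0.01 and -0.13. The other chromosomes lie between -0.05 and 0.11.

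Genes switched on in the integrated stress response were mostly lower in Dnm1l-/-. In that response, kinases phosphorylate the initiation factor eIF2, which slows translation in general but favours ATF4, and ATF4 with partners such as C/EBP proteins and CHOP then switches on genes of amino acid supply, redox control and cell death. Of 19 compared effector genes 9 were lower by 2-fold or more and 0 higher, where 2.1% of all compared genes were lower (median -0.73, against 0.01 over all genes). Outside the low regions and chromosome 8 they were 7 of 16, with a median of -0.66. Of 16 regulators 4 were lower and 0 higher, with a median of -0.14 (3 of 15 and -0.10 outside those regions).

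Among the regulators, Trib3, which encodes a pseudokinase that feeds back on ATF4, was at 7.43 FPKM in Dnm1l-/- against 42.0 FPKM in e14tg2a (-2.35). The stress-induced transcription factor gene Atf3 was at 2.49 FPKM in Dnm1l-/- against 11.6 in e14tg2a (-1.85). Cebpb was at 2.58 FPKM in Dnm1l-/- against 9.63 in e14tg2a (-1.57). Nupr1, the gene of a stress-induced chromatin protein, was at 32.5 FPKM in Dnm1l-/- against 80.4 in e14tg2a (-1.28). Atf4 itself was higher, at 190 FPKM in Dnm1l-/- and 133 FPKM in e14tg2a (0.50). The eIF2 kinase gene Eif2ak3 was at 7.41 FPKM in Dnm1l-/- and 5.86 in e14tg2a (0.30). Transcripts of Atf4 and of this kinase were thus not lower, while those of Trib3, Atf3, Cebpb and Nupr1 were. ATF4 protein, which is set mainly by translation, was not measured. Ppp1r15a, the phosphatase subunit gene that ends the response, stood at 33.4 FPKM in Dnm1l-/- and 62.3 FPKM in e14tg2a (-0.88).

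Among the effectors the largest difference was that of Chac1, whose product degrades glutathione, at 2.09 FPKM in Dnm1l-/- against 31.9 FPKM in e14tg2a (-3.41). Herpud1, an endoplasmic reticulum degradation gene, followed at 6.38 FPKM in Dnm1l-/- against 34.6 in e14tg2a (-2.27). The secreted glycoprotein gene Stc2 was at 2.62 FPKM in Dnm1l-/- against 12.1 in e14tg2a (-1.86). The peptide hormone gene Adm2 was at 1.25 FPKM in Dnm1l-/- against 5.60 in e14tg2a (-1.56). Ddit4, which encodes an inhibitor of mTORC1, was at 15.4 FPKM in Dnm1l-/- against 44.8 in e14tg2a (-1.48). The hypoxia-responsive gene Ndrg1 was at 9.38 FPKM in Dnm1l-/- against 25.4 in e14tg2a (-1.35). The other 3 genes past 2-fold lay between -1.14 and -1.05. On the other side of 0, the matricellular gene Ctgf was at 93.9 FPKM in Dnm1l-/- and 50.0 FPKM in e14tg2a (0.90), short of 2-fold.

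The enzymes that make serine and carry its carbon into folate followed the same side. Of 21 such genes 4 were lower by 2-fold or more and 0 higher, with a median of -0.45 (3 of 18 and -0.28 outside the low regions and chromosome 8). Phgdh, which commits a glycolytic intermediate to serine, was at 49.8 FPKM in Dnm1l-/- against 134 FPKM in e14tg2a (-1.41). The later steps of serine synthesis, Psph and Psat1, were within 2-fold at -0.70 and -0.45. In the mitochondrial folate pathway Mthfd2 was at 31.8 FPKM in Dnm1l-/- against 79.95 in e14tg2a (-1.30). Shmt2, which splits serine into glycine, was at 79.8 FPKM in Dnm1l-/- against 147 in e14tg2a (-0.87). Gldc, the decarboxylase of the glycine cleavage system, was at 21.2 FPKM in Dnm1l-/- against 60.8 in e14tg2a (-1.48). Its partner in glycine cleavage, Amt, was on the other side, at 41.7 FPKM in Dnm1l-/- and 28.9 FPKM in e14tg2a (0.51).

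Of 23 other genes of amino acid synthesis and breakdown, 4 were lower by 2-fold or more and 0 higher, with a median of -0.22 (4 of 21 and -0.15 outside the low regions and chromosome 8). Aass, which begins lysine breakdown in mitochondria, was at 0.423 FPKM in Dnm1l-/- against 8.78 FPKM in e14tg2a (-2.78). Pck2, the mitochondrial form of phosphoenolpyruvate carboxykinase, was at 7.92 FPKM in Dnm1l-/- against 26.8 in e14tg2a (-1.64). Bcat2, a branched-chain aminotransferase of mitochondria, was at 30.2 FPKM in Dnm1l-/- against 79.2 in e14tg2a (-1.36). Aldh18a1, which starts proline synthesis, was at 8.78 FPKM in Dnm1l-/- against 21.3 in e14tg2a (-1.19). All 4 encode mitochondrial enzymes. Asparagine synthetase, Asns, a frequently used ATF4 target, was within 2-fold at 142 FPKM in Dnm1l-/- and 201 FPKM in e14tg2a (-0.49).

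Amino acid transporters had a median of -0.53 over 20 genes, with 2 at least 2-fold lower and 1 higher (2 lower and 1 higher of 17, and -0.48, outside the low regions and chromosome 8). Slc6a9, a glycine transporter gene, was at 0.683 FPKM in Dnm1l-/- against 7.85 FPKM in e14tg2a (-2.40). The glutamate transporter gene Slc1a3 was at 0.545 FPKM in Dnm1l-/- against 3.13 in e14tg2a (-1.42). Slc7a5 and Slc3a2, the light and heavy chains of the large neutral amino acid exchanger, were at 41.2 and 69.8 FPKM in Dnm1l-/- and at 81.9 and 113 FPKM in e14tg2a (-0.97 and -0.69). The exception was Slc38a4, an imprinted transporter gene, at 110 FPKM in Dnm1l-/- against 29.7 FPKM in e14tg2a (1.85).

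The cytosolic tRNA synthetases, which load amino acids onto tRNAs, had a median of -0.29, and -0.23 outside the low regions and chromosome 8. None of the 20 reached 2-fold and 16 were below 0. The lowest were those for serine and glycine. Sars was at 68.4 FPKM in Dnm1l-/- and 104 FPKM in e14tg2a (-0.60). Gars was at 132 FPKM in Dnm1l-/- and 192 in e14tg2a (-0.54). By median the effectors were the lowest of these groups, and no synthetase differed by as much as 2-fold.

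**Figure D3:**
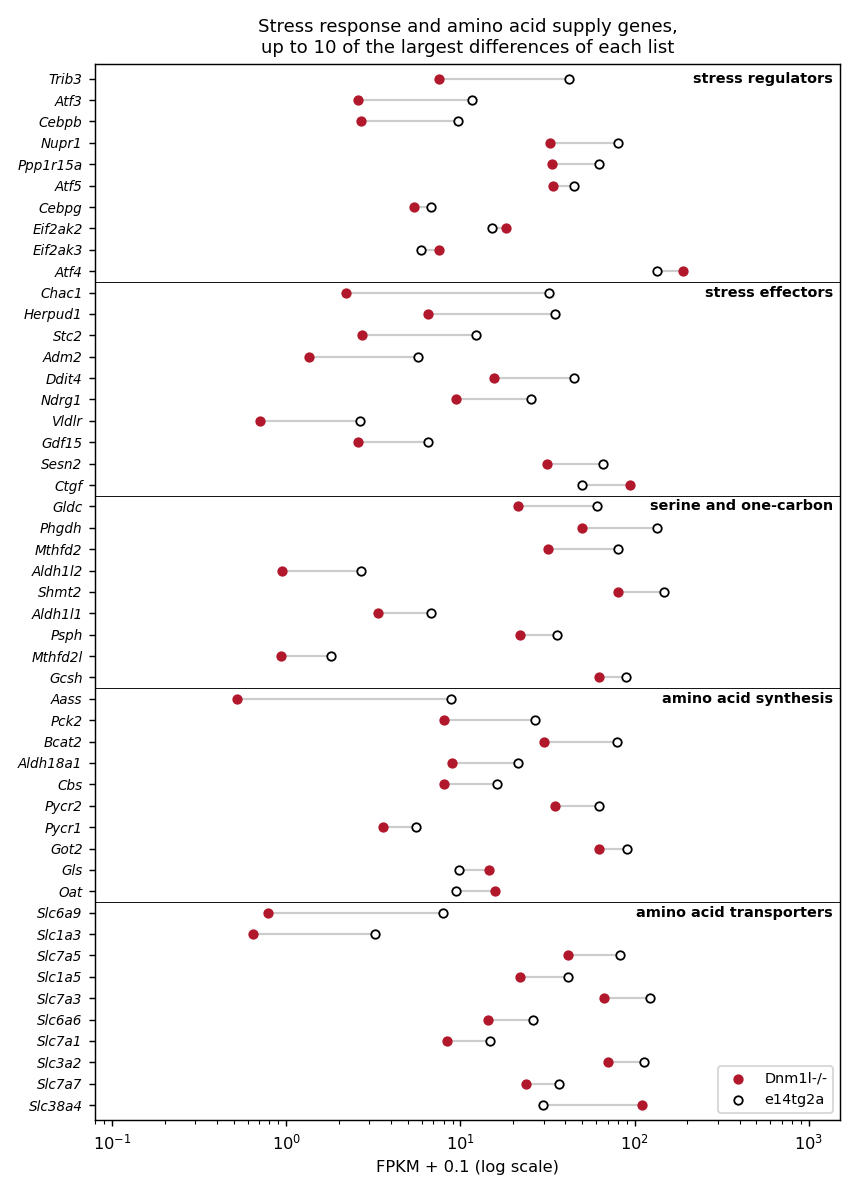
Levels (FPKM + 0.1, log scale) in Dnm1l-/- (red, filled) and e14tg2a (open) of up to 10 genes with the largest differences in each of 5 lists, 1 library each. Chac1, Trib3, Aass and Slc6a9 have the widest gaps with the Dnm1l-/- point on the left, and Slc38a4 and Atf4 have theirs on the right.

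Dimers of ATF4 and C/EBP proteins are known to bind a composite element that reads TGATGNAA, where N is any base. Windows of 250 bases before the annotated start were searched for it on both strands, with sequences from RefSeq (GRCm38.p6). It occurred in 3.45% of 32851 windows and, counted by gene, in 197 of 8138 compared genes with a window (2.42%). Of 88 genes of the 6 lists above with a window, 15 held it (17.0%) and 73 did not. Of the 73 without it 15 were lower by 2-fold or more. Of the 15 with it 6 were lower by 2-fold or more and 0 higher, and the difference was not tested. Trib3, the regulator with the largest difference, is not among the 15 with the element. The 6 stretches are shown because these genes held the element and were at least 2-fold lower. Each has 80 bases on the strand of the gene, and capitals mark the element, which here reads TTGCATCA or TTACATCA since it lies on the opposite strand.
Chac1: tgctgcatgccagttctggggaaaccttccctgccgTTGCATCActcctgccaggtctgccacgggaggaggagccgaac
Atf3: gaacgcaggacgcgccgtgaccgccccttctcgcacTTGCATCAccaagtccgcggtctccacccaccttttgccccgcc
Pck2: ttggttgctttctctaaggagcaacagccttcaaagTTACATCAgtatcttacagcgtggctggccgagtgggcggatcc
Vldlr: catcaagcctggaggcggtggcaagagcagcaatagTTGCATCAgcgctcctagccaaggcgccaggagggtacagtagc
Herpud1: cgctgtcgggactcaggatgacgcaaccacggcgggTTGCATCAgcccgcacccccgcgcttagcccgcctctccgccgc
Nupr1: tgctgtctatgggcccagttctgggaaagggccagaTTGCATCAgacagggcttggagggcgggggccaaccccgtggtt

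The stretch of Chac1 is chr2:119351013-119351092 on the plus strand, with the element 193 bases before the start. That of Atf3 is chr1:191183400-191183479 on the minus strand (110 bases before the start), and that of Pck2 is chr14:55540127-55540206 on the plus strand (103 bases). Vldlr, a lipoprotein receptor gene chosen here for its match, has it at chr19:27216784-27216863 on the plus strand (200 bases), Herpud1 at chr8:94386281-94386360 on the plus strand (112 bases) and Nupr1 at chr7:126625537-126625616 on the minus strand (110 bases). Vldlr has 2 windows, and its stretch comes from 1 of them. Its level was 0.607 FPKM in Dnm1l-/- and 2.54 FPKM in e14tg2a (-1.14). In the 6 lists the median was -0.58 for genes with the element and -0.29 for those without, while over all compared genes it was 0.00 with and 0.01 without. The element was in 15 of 173 lower genes with a window (8.67%) and in 14 of 189 higher genes (7.41%), where 5 of the 14 are near-identical predicted genes. The difference between these shares was not tested. A match describes the sequence and shows no binding.

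Transcripts of the 2-cell-like state were among the largest differences on the higher side. A small share of embryonic stem cells passes through this state at any time and then transcribes Zscan4 and other genes of the early embryo, which protect telomeres among other roles. The table holds 27 genes of the list, of which 11 were compared, and 8 of these were higher by 2-fold or more and 0 lower (median 2.53), where 2.51% of all compared genes were higher. Zscan4f was at 27.3 FPKM in Dnm1l-/- against 1.296 FPKM in e14tg2a (3.62). Zscan4c was at 20.8 FPKM in Dnm1l-/- against 1.01 in e14tg2a (3.44). Tcstv3 was at 7.35 FPKM in Dnm1l-/- against 0.403 in e14tg2a (2.57). Gm4340 was at 10.2 FPKM in Dnm1l-/- against 0.938 in e14tg2a (2.53). Tmem92, a membrane protein gene, was at 3.74 FPKM in Dnm1l-/- against 0.202 in e14tg2a (1.98). In contrast, the transcription regulators Dppa2 and Dppa4, which act upstream of this state, were at 71.4 and 122 FPKM in Dnm1l-/- and at 65.9 and 122 FPKM in e14tg2a. Another 6 of the 25 largest on the higher side, AF067061, Gm20767, Gm6763, Gm8764, Gm21293 and Gm21304, are predicted genes in repeated families, at 7.83 to 37.4 FPKM in Dnm1l-/- against 0.319 to 1.72 FPKM in e14tg2a.

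Several facts bear on these counts. Members of the Zscan4, Tcstv and predicted gene families are nearly identical, so reads may be divided among copies and single values are uncertain. Of the 11 compared genes 6 were below 1 FPKM in e14tg2a and passed the filter through the knockouts, so the count over compared genes is no measure of the list. In bulk RNA, more cells of a type and more RNA per cell cannot be told apart.

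The Rhox cluster of homeobox genes on the X chromosome, active in the germline and the placenta and silenced by DNA methylation elsewhere, held genes with large differences. The table holds 31 of its genes, of which 5 were compared, and all 5 were at least 2-fold higher. Of these 5, Rhox1 and Rhox7 passed the filter only through libraries of knockouts, so the count is no measure of the cluster. Rhox5 was at 779 FPKM in Dnm1l-/- against 76.8 FPKM in e14tg2a (3.33). Rhox6 was at 43.8 FPKM in Dnm1l-/- against 6.02 in e14tg2a (2.67). Rhox9 was at 36.0 FPKM in Dnm1l-/- against 4.23 in e14tg2a (2.82). Rhox1 and Rhox7, both below 0.1 FPKM in e14tg2a, were at 2.06 and 1.83 FPKM in Dnm1l-/-. With all 31 genes counted, most of them at or near 0, the median was 0.06.

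Of 37 germline genes 18 were compared, of which 7 were higher by 2-fold or more and 0 lower (median 0.76). Of all compared genes 2.51% were higher. Above 0 were 17 of the 18. Of the 18, 4 were below 1 FPKM in e14tg2a and passed the filter through the knockouts, so these counts are no measure of the list. With all 37 genes counted the median was 0.33. Fmr1nb, an X-linked testis gene, was at 39.4 FPKM in Dnm1l-/- against 5.28 FPKM in e14tg2a (2.69). Tex19.1, which restrains retrotransposons in germ cells, was at 66.4 FPKM in Dnm1l-/- against 12.98 in e14tg2a (2.27). Tuba3a, a testis tubulin gene with a near-identical copy, was at 22.6 FPKM in Dnm1l-/- against 3.002 in e14tg2a (2.56). Tex13 was at 4.86 FPKM in Dnm1l-/- against 0.0655 in e14tg2a (2.46). Dazl, an RNA-binding protein gene of germ cells, was at 3.77 FPKM in Dnm1l-/- against 1.10 in e14tg2a (1.18). Sohlh2, a germ cell transcription factor gene and one of the 25 largest on the higher side, was at 10.4 FPKM in Dnm1l-/- against 0.713 in e14tg2a (2.74). Sycp3 and Ddx4, also germ cell genes, were within 2-fold at 0.65 and 0.57.

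In the machinery of DNA methylation 2 of 24 genes were lower by 2-fold or more and 1 higher (median -0.13). Dnmt3a, a de novo methyltransferase gene, was at 2.29 FPKM in Dnm1l-/- against 7.74 FPKM in e14tg2a (-1.41). Dnmt3b, the other de novo enzyme, was at 17.5 FPKM in Dnm1l-/- and 31.0 in e14tg2a (-0.79). Their cofactor gene Dnmt3l was at 100 FPKM in Dnm1l-/- and 155 in e14tg2a (-0.63), so that these 2 were within 2-fold. Dppa3, which protects the maternal genome from demethylation, was at 8.20 FPKM in Dnm1l-/- against 26.2 in e14tg2a (-1.57). Zbtb38, a reader of methylated DNA, was higher at 5.20 FPKM in Dnm1l-/- against 1.65 in e14tg2a (1.23). Among 22 Polycomb genes, which keep developmental genes silent through histone marks, 0 reached 2-fold in either direction (median -0.23). DNA methylation itself was not measured.

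**Figure D4:**
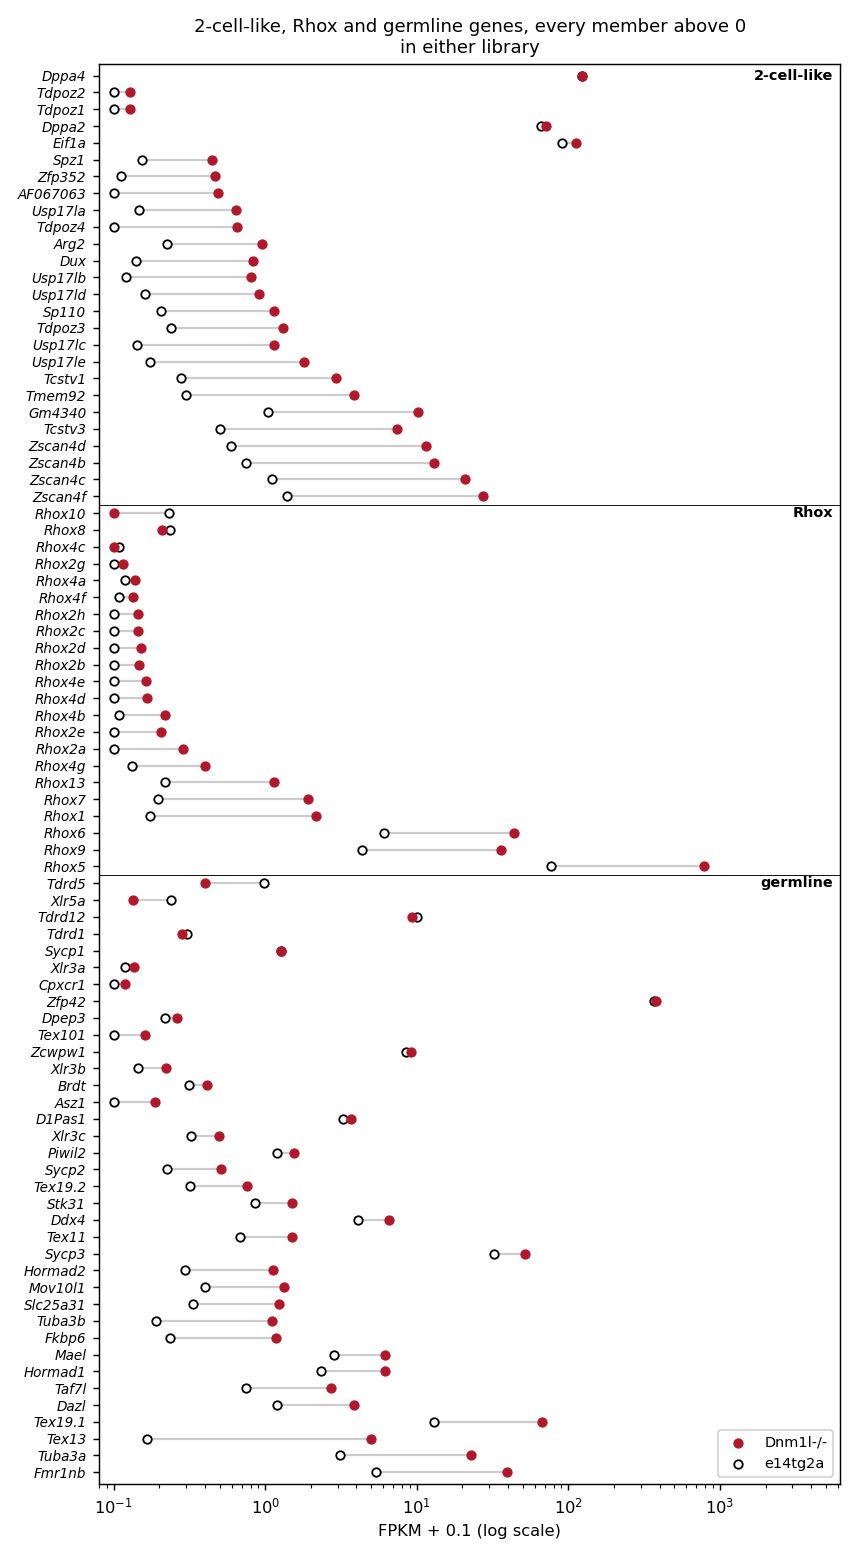
Levels (FPKM + 0.1, log scale) in Dnm1l-/- (red, filled) and e14tg2a (open) of every 2-cell-like, Rhox and germline gene above 0 in either library, 1 library each. Points of Dnm1l-/- lie to the right for the Zscan4 genes, Rhox5, Rhox6, Rhox9, Fmr1nb and Tuba3a, while those of Dppa2 and Dppa4 nearly coincide.

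Imprinted genes, expressed from the allele of 1 parent and sensitive to methylation, differed in both directions. Of 25 compared, 5 were higher by 2-fold or more and 4 lower, with a median of -0.07, where 2.51% of all compared genes were higher and 2.1% lower. On the lower side were Mest, Gnas, Phlda2 and Cdkn1c. Mest, a paternally expressed gene, was at 0.909 FPKM in Dnm1l-/- against 27.2 FPKM in e14tg2a (-3.89). Gnas, in the low chromosome 2 stretch, was at 58.1 FPKM in Dnm1l-/- against 228 in e14tg2a (-1.95). Phlda2 was at 26.2 FPKM in Dnm1l-/- against 59.5 in e14tg2a (-1.16). The cell cycle inhibitor gene Cdkn1c was at 3.78 FPKM in Dnm1l-/- against 9.65 in e14tg2a (-1.15). On the higher side were Sgce and its paternally expressed neighbour Peg10, at 12.5 and 138 FPKM in Dnm1l-/- against 2.49 and 45.5 FPKM in e14tg2a (1.96 and 1.58). Slc38a4, given above, was on the same side. The deiodinase gene Dio3 was at 19.21 FPKM in Dnm1l-/- against 4.49 in e14tg2a (1.88). The zinc finger gene Plagl1 was at 4.77 FPKM in Dnm1l-/- against 1.07 in e14tg2a (1.48).

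Dio3 lies in the Dlk1-Meg3 domain of chromosome 12, whose maternally expressed noncoding RNAs went the other way. Meg3 was at 11.3 FPKM in Dnm1l-/- against 59.8 FPKM in e14tg2a (-2.30). Rian was at 9.24 FPKM in Dnm1l-/- against 45.9 in e14tg2a (-2.20). Mirg was at 3.52 FPKM in Dnm1l-/- against 20.7 in e14tg2a (-2.26). Fis1-/- cells had 21.9, 16.7 and 5.65 FPKM of these RNAs and Mff-/- cells 62.7, 41.0 and 17.0 FPKM. Within the domain the paternally expressed Dio3 was thus higher and all 3 maternally expressed RNAs lower. They are 3 of the 5 noncoding RNAs with the largest differences on the lower side, with 1700030C10Rik at 3.26 FPKM in Dnm1l-/- against 17.3 in e14tg2a (-2.10) and 2410018L13Rik at 1.504 FPKM in Dnm1l-/- against 6.51 in e14tg2a (-1.58), both also on chromosome 12. Of 304 symbols longer than 200 bases with noncoding transcripts only, 9 were higher by 2-fold or more and 13 lower (median -0.06).

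Genes of pluripotency as a group had few differences past 2-fold. Of 18 core genes 0 reached 2-fold in either direction (median 0.02), and Pou5f1 was at 913 FPKM in Dnm1l-/- and 1208 FPKM in e14tg2a (-0.40). Among 23 genes of the naive state 1 was higher and 1 lower (median 0.05). The lower one was Dppa3, given above. The higher one was Tfcp2l1, a transcription factor gene of the naive network, at 114 FPKM in Dnm1l-/- against 35.4 FPKM in e14tg2a (1.66). Nanog was just short of 2-fold at 437 FPKM in Dnm1l-/- and 221 in e14tg2a (0.98), and Klf5 and Prdm14 were at 0.92 and 0.85. Tfe3, which opposes naive exit in the nucleus, and Sall4 were on the lower side at -0.92 and -0.84, and Sall4 lies in the chromosome 2 stretch.

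Genes that mark the step out of the naive state had a median of -0.30 over 16 genes, with 2 at least 2-fold lower and 0 higher. Tcf15, a gene of cells primed to leave it, was at 6.74 FPKM in Dnm1l-/- against 40.7 FPKM in e14tg2a (-2.43), and Dnmt3a is the other. Of 12 neural genes 4 were lower by 2-fold or more and 0 higher (median -0.55), and outside chromosome 8, where Tubb3 lies, 3 of 11 (median -0.47). Crmp1, a growth cone gene, was at 1.89 FPKM in Dnm1l-/- against 18.4 in e14tg2a (-2.75). The retinoic acid binding protein gene Crabp2 was at 0.756 FPKM in Dnm1l-/- against 4.58 in e14tg2a (-1.67). The transcription factor gene Sox11 was at 0.275 FPKM in Dnm1l-/- against 2.93 in e14tg2a (-1.63). Tubb3 was at 23.3 FPKM in Dnm1l-/- against 69.6 in e14tg2a (-1.54). Without the filter on low values the neural median was -0.02. Mesoderm genes were mostly unmeasured, with 4 of 20 compared and 1 of them lower, Cdx1 at 0.518 FPKM in Dnm1l-/- against 2.33 in e14tg2a (-1.13).

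Keratins and regulators of trophectoderm, the outer epithelium of the blastocyst, were mostly on the higher side. Of 12 compared genes 6 were higher by 2-fold or more and 0 lower (median 0.95), where 2.51% of all compared genes were higher. Above 0 were 9 of the 12, and 3 were below. Krt8, Krt18 and Krt19 were at 39.9, 27.1 and 19.12 FPKM in Dnm1l-/- against 9.73, 8.59 and 6.07 FPKM in e14tg2a (1.93, 1.55 and 1.51). The transcription factor genes Tead4, Id2 and Ets2 were at 1.57, 1.23 and 1.18. The trophoblast gene Eomes was within 2-fold, at 3.68 FPKM in Dnm1l-/- and 1.83 FPKM in e14tg2a (0.73). Of 7 trophoblast markers 4 had a difference above 0, while Cdx2 and Elf5, hardly detected in either library, were at -0.04 and -0.07. Below 0.1 FPKM were 3 of the 7 markers in Dnm1l-/- and 2 of the 7 in e14tg2a. The part of such cells in the keratin values was not tested. With all 22 listed genes the median was 0.27, with 13 above 0 and 8 below. Krt42 and Krt17, epithelial keratin genes among the 25 largest differences, were at 144 and 81.5 FPKM in Dnm1l-/- against 19.6 and 10.7 FPKM in e14tg2a (2.81 and 2.82).

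Of 13 genes of extraembryonic endoderm 1 was at least 2-fold higher and 1 lower (median 0.11). The higher one was Nid1, a basement membrane gene, at 75.8 FPKM in Dnm1l-/- against 22.8 FPKM in e14tg2a (1.69), and the lower one Serpinh1, a collagen chaperone gene, at 6.395 FPKM in Dnm1l-/- against 19.8 in e14tg2a (-1.49). Feeder fibroblast genes had 1 of 9 at least 2-fold higher, Fstl1, a secreted glycoprotein gene, at 34.7 FPKM in Dnm1l-/- against 16.1 in e14tg2a (1.06), and 7 of 9 below 0 (median -0.26). The fibroblast collagen gene Col1a1 was at 0.965 FPKM in Dnm1l-/- and 1.505 in e14tg2a. The 18 listed genes summed to 59.1 FPKM in Dnm1l-/- and 46.8 FPKM in e14tg2a, with Fstl1 the highest in both.

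Surface and cytoskeletal genes held the largest single difference on the higher side. Msln, which encodes the surface protein mesothelin, was at 30.9 FPKM in Dnm1l-/- against 0.747 FPKM in e14tg2a (4.19). Msln, below 1 FPKM in e14tg2a, passed the filter through libraries of knockouts. In its list of annexins, S100 proteins and related genes, 6 of 21 were higher by 2-fold or more and 0 lower (median 0.30), where 2.51% of all compared genes were higher. The other 5 differed less than Msln. S100a1 was at 67.6 FPKM in Dnm1l-/- against 19.5 in e14tg2a (1.74). Anxa1 was at 12.9 FPKM in Dnm1l-/- against 4.501 in e14tg2a (1.33). S100a13 was at 34.3 FPKM in Dnm1l-/- against 13.2 in e14tg2a (1.31). The membrane protein gene Emp1 was at 31.2 FPKM in Dnm1l-/- against 12.1 in e14tg2a (1.3). Anxa3 was at 8.52 FPKM in Dnm1l-/- against 3.38 in e14tg2a (1.12).

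Among 25 junction and adhesion genes 3 were higher by 2-fold or more and 1 lower. The adhesion gene Icam1 was at 25.7 FPKM in Dnm1l-/- against 9.22 in e14tg2a (1.38). The laminin receptor gene Itga6 was at 34.9 FPKM in Dnm1l-/- against 15.8 in e14tg2a (1.09). The tight junction gene Cldn6 was lower at 3.99 FPKM in Dnm1l-/- against 21.3 in e14tg2a (-2.16). Among 19 matrix genes 2 were higher and 0 lower, both X-linked genes of heparan sulfate proteoglycans. Gpc3 was at 70.3 FPKM in Dnm1l-/- against 23.5 in e14tg2a (1.54). Gpc4 was at 14.4 FPKM in Dnm1l-/- against 6.10 in e14tg2a (1.12). Of 26 actin and tubulin genes 1 was higher, Tubb2a at 164 FPKM in Dnm1l-/- against 68.4 in e14tg2a (1.25), and 1 lower, Tubb3.

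Among genes of mitochondrial shape, import and gene expression 0 passed 2-fold, where 4.6% of all compared genes did. Of 16 fission genes 0 reached 2-fold in either direction (median -0.06), and Dnm1l itself was the lowest when its noncoding transcript was included. March5, the ubiquitin ligase gene that acts on Drp1, was at 38.4 FPKM in Dnm1l-/- and 56.1 FPKM in e14tg2a (-0.53), and the receptor genes Mief2 and Mief1 were at 0.37 and -0.17. Of 18 genes of fusion and its proteases, among them Mfn1 (0.12) and Mfn2 (-0.07), 0 reached 2-fold (median -0.01). The same held for 15 cristae and prohibitin genes (median 0.04), 27 import genes (-0.02), 18 genes of mitochondrial DNA maintenance and transcription (-0.06) and 76 genes of the mitochondrial ribosome (-0.01).

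Respiratory chain genes had few differences as well, with 0 of 38 for complex I (median -0.04) and 0 of 26 for complexes II to IV (-0.08) past 2-fold. Of 18 complex V genes 1 was lower, Atp5e at 271 FPKM in Dnm1l-/- against 612 FPKM in e14tg2a (-1.17), and the median was -0.05. Atp5e lies in the chromosome 2 stretch. The largest difference in the complex I list was that of Ndufa4l2, at 32.8 FPKM in Dnm1l-/- and 58.5 in e14tg2a (-0.82). That gene is a hypoxia-induced relative of a subunit gene and not a complex I subunit gene itself. Ndufb7 followed at -0.48. The table holds 0 transcripts encoded in mitochondrial DNA, so the respiratory chain subunits encoded there are not covered.

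**Figure D5:**
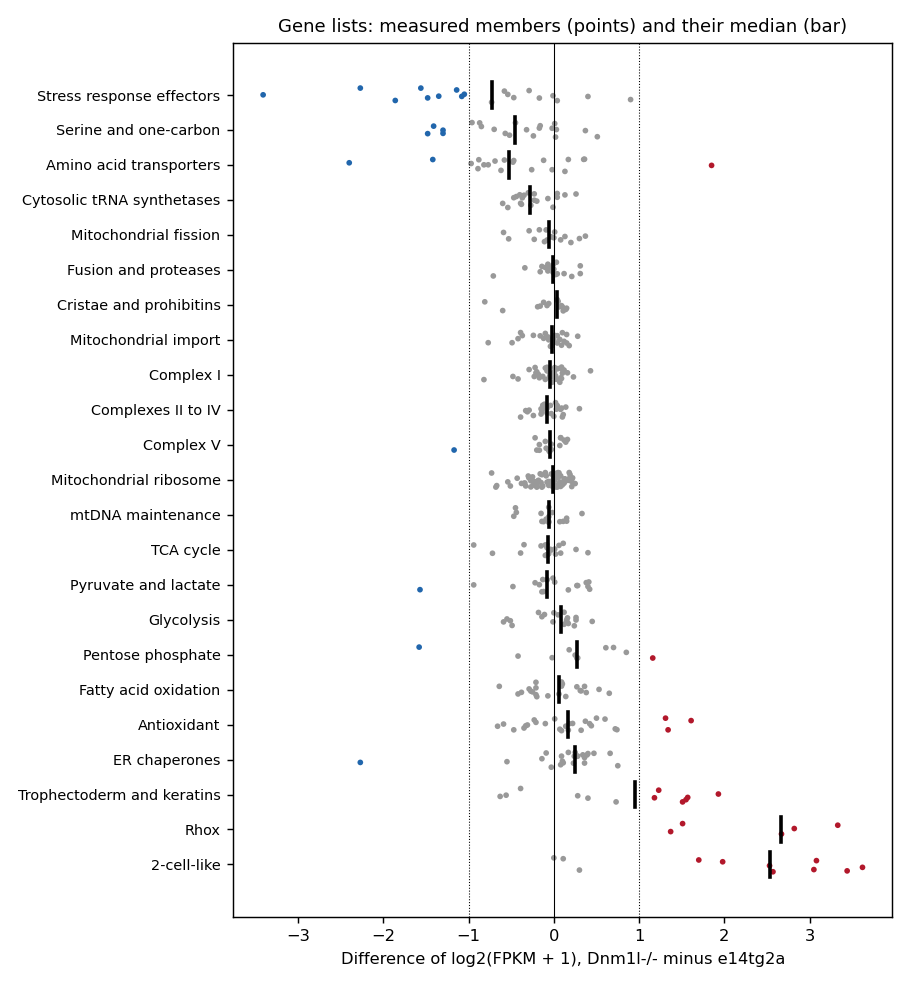
Differences of log2(FPKM + 1), Dnm1l-/- minus e14tg2a, for the compared members of 23 gene lists, with points for genes (red at least 2-fold higher, blue at least 2-fold lower, grey within 2-fold), vertical jitter without meaning and black bars for medians. Medians of the mitochondrial lists from fission to mtDNA maintenance sit within a narrow band around 0, and Atp5e of complex V is past 2-fold at -1.17. The stress and serine lists lean left, and the Rhox and 2-cell-like lists lie to the right.

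Central metabolism showed few genes past 2-fold. In 20 glycolysis genes there were 0 (median 0.08), and Gapdh was at 9750 FPKM in Dnm1l-/- and 8165 FPKM in e14tg2a (0.26). In 22 genes of the tricarboxylic acid cycle there were also 0 (median -0.07), where Pcx, which feeds the cycle with oxaloacetate, was the furthest out at 11.98 FPKM in Dnm1l-/- and 23.9 in e14tg2a (-0.94). Of 19 genes of pyruvate and lactate 1 was lower, Ldhb, the lactate dehydrogenase subunit that favours lactate use, at 240 FPKM in Dnm1l-/- against 712 in e14tg2a (-1.57). In the pentose phosphate pathway 1 of 11 was higher, the endoplasmic reticulum enzyme gene H6pd at 3.63 FPKM in Dnm1l-/- against 1.07 in e14tg2a (1.16), and 1 lower, Prps2, a phosphoribosyl pyrophosphate synthetase gene, at 1.88 FPKM in Dnm1l-/- against 7.58 in e14tg2a (-1.58). Its partner Prps1 was on the opposite side at 70.5 FPKM in Dnm1l-/- and 38.6 in e14tg2a (0.85).

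Lipid genes gave a like picture. Fatty acid oxidation (23 genes, median 0.06), fatty acid synthesis (19 genes, 0.06) and cholesterol synthesis (24 genes, 0.16) had 0 genes past 2-fold. Pmvk of the cholesterol pathway was at 63.2 FPKM in Dnm1l-/- and 31.6 FPKM in e14tg2a (0.98). Of 12 genes of lipid droplets 1 was lower, G0s2, which encodes an inhibitor of lipolysis, at 0.657 FPKM in Dnm1l-/- against 9.89 in e14tg2a (-2.72). Acot1, an acyl-CoA thioesterase gene among the 25 largest on the lower side, was at 2.70 FPKM in Dnm1l-/- against 16.5 in e14tg2a (-2.24). In 23 peroxisome genes, whose organelles Drp1 also divides, 1 was higher, the catalase gene Cat at 59.3 FPKM in Dnm1l-/- against 22.8 in e14tg2a (1.34).

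Past 2-fold stood 3 of 27 antioxidant genes, all of them on the higher side, where 2.51% of all compared genes were. Below 0 were 9 of the 27 (median 0.17, where the quartiles of all compared genes were -0.22 and 0.22). The 3 past 2-fold were Cat, Gss and Nfe2l2. Gss, the glutathione synthetase gene, was at 37.3 FPKM in Dnm1l-/- against 11.6 FPKM in e14tg2a (1.61). Nfe2l2, the gene of the antioxidant regulator NRF2, was at 43.8 FPKM in Dnm1l-/- against 17.1 in e14tg2a (1.31). Sod2 and Srxn1 were at 0.72 and 0.74, and Hmox1 on chromosome 8 at -0.66. Of 24 endoplasmic reticulum chaperone and folding genes 19 were above 0 (median 0.25) but 0 were at least 2-fold higher, and Herpud1 alone was lower. Hspa5, the main chaperone of that compartment, was at 249 FPKM in Dnm1l-/- and 193 in e14tg2a (0.36). Of 20 cytosolic chaperone genes 0 reached 2-fold (median -0.05), and the heat shock gene Hsp90aa1 was at 1983 FPKM in Dnm1l-/- and 1056 in e14tg2a (0.91).

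Genes of organelle turnover and cell death were mostly within 2-fold. Of 23 mitophagy and autophagy genes 1 was higher and 0 lower (median -0.08), the autophagy receptor gene Calcoco2 at 39.8 FPKM in Dnm1l-/- against 6.88 FPKM in e14tg2a (2.37). Another receptor gene, Optn, was at 3.57 FPKM in Dnm1l-/- and 7.82 in e14tg2a (-0.95). Lysosome genes (27, median -0.02) and genes of calcium exchange between endoplasmic reticulum and mitochondria (17, median -0.24) had 0 past 2-fold. Of 21 genes of the BCL-2 and caspase families 2 were lower, both promoters of cell death. Bmf was at 0.894 FPKM in Dnm1l-/- against 3.85 in e14tg2a (-1.36). Hrk was at 0.219 FPKM in Dnm1l-/- against 1.53 in e14tg2a (-1.05). Of 23 p53 targets 2 were lower (1 of 21 outside the low regions and chromosome 8), both also counted among the stress effectors. Gdf15 was at 2.496 FPKM in Dnm1l-/- against 6.38 in e14tg2a (-1.08). Sesn2 was at 31.3 FPKM in Dnm1l-/- against 65.7 in e14tg2a (-1.05).

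In a joint list of Notch and Hedgehog genes 3 of 20 were higher by 2-fold or more and 2 lower, and 11 were above 0 and 9 below (median 0.07). The higher ones belong to the Hedgehog arm. The transcription factor gene Gli2 was at 26.2 FPKM in Dnm1l-/- against 7.03 FPKM in e14tg2a (1.76). Gli1, which encodes a related factor, was at 44.5 FPKM in Dnm1l-/- against 21.3 in e14tg2a (1.03). The receptor gene Ptch1 was at 16.2 FPKM in Dnm1l-/- against 5.99 in e14tg2a (1.3). The lower ones belong to the Notch arm. The ligand gene Jag1 was at 0.550 FPKM in Dnm1l-/- against 2.97 in e14tg2a (-1.36). Lfng, which encodes a modifier of Notch, was at 1.38 FPKM in Dnm1l-/- against 4.56 in e14tg2a (-1.23). Gli1 and Ptch1 are themselves read as targets of the Hedgehog pathway. The arms were not counted apart, and the activity of either pathway was not tested.

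In the Nodal, BMP and TGF-beta list 3 of 26 were higher and 2 lower (median 0.21). Inhbb, an activin subunit gene, was at 8.54 FPKM in Dnm1l-/- against 2.40 FPKM in e14tg2a (1.49), and Id4 and Id2, BMP targets, at 1.29 and 1.23. Lefty1, a Nodal antagonist and target, was at 8.02 FPKM in Dnm1l-/- against 22.8 in e14tg2a (-1.40). The ligand gene Bmp4 was at 26.0 FPKM in Dnm1l-/- against 53.1 in e14tg2a (-1.0). Id1, another BMP target, was at 11.3 FPKM in Dnm1l-/- and 22.3 in e14tg2a (-0.92), so the Id genes did not share a side. Among 18 WNT genes 1 was higher, the ligand gene Wnt7b at 5.69 FPKM in Dnm1l-/- against 0.935 in e14tg2a (1.79), and 1 lower, the receptor gene Fzd10 at 1.44 FPKM in Dnm1l-/- against 4.48 in e14tg2a (-1.17).

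Other signalling lists had few members past 2-fold. Of 14 genes of the LIF and STAT3 pathway 1 was higher, the kinase gene Pim1 at 51.7 FPKM in Dnm1l-/- against 24.5 FPKM in e14tg2a (1.05), with Stat3 at 0.58. Of 19 Hippo pathway genes 1 was higher, Tead4. Of 25 genes of ERK feedback and immediate-early response and 21 of mTOR and insulin signalling 0 reached 2-fold (medians -0.07 and -0.19). Hypoxia genes had 3 of 19 lower and 0 higher (median -0.18), Ddit4 and Ndrg1, already counted above, and Epas1, which encodes HIF-2 alpha, at 2.57 FPKM in Dnm1l-/- against 7.09 in e14tg2a (-1.18). Hif1a was on the other side at 17.9 FPKM in Dnm1l-/- and 13.98 in e14tg2a (0.34).

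Interferon response genes leaned to the higher side, with 23 of 26 above 0 and a median of 0.27, but only Oasl1 and Irf7 were past 2-fold. Oasl1, an antiviral gene, was at 39.9 FPKM in Dnm1l-/- against 4.38 FPKM in e14tg2a (2.93). Irf7, a regulator of interferon genes, was at 19.4 FPKM in Dnm1l-/- against 7.47 in e14tg2a (1.26). Genes of antigen presentation and complement had 1 of 12 higher, the complement regulator gene Cd55 at 11.3 FPKM in Dnm1l-/- against 4.99 in e14tg2a (1.04), and a median of 0.06. Irak3, an inhibitor of innate immune signalling, was among the 25 largest on the lower side, at 0.670 FPKM in Dnm1l-/- against 7.90 in e14tg2a (-2.41).

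Of 29 cell cycle genes 2 were lower by 2-fold or more and 0 higher (median 0.01), the G1 cyclin gene Ccnd1 at 7.92 FPKM in Dnm1l-/- against 24.1 FPKM in e14tg2a (-1.49) and Cdkn1c. Mcm2 and Aurka, both within 2-fold at -0.84 and -0.77, lie in the chromosome 6 and chromosome 2 stretches. Of 22 nucleotide synthesis genes and 22 iron and heme genes 0 reached 2-fold (medians 0.08 and -0.06). Of 13 polyamine and creatine genes 2 were higher, the spermine oxidase gene Smox at 11.2 FPKM in Dnm1l-/- against 2.78 in e14tg2a (1.69) and Amd1, at 3.19 FPKM in Dnm1l-/- against 0.00934 in e14tg2a, which is uncertain because the gene has near-identical copies. The large machines had few differences. Of 86 genes of the cytosolic ribosome 1 was lower, the testis-expressed copy Rpl39l at 5.76 FPKM in Dnm1l-/- against 13.7 in e14tg2a (-1.13), of 47 proteasome genes 0 passed 2-fold, and of 56 histone genes 2 were lower (medians -0.03, 0.05 and -0.04). Of 254 Zfp genes 2 were higher and 0 lower, with a median of 0.00. Zfp521 was at 1.85 FPKM in Dnm1l-/- against 0.195 in e14tg2a (1.26), and it passed the filter only through Dnm1l-/- and Fis1-/-. Zfp566 was at 18.6 FPKM in Dnm1l-/- against 7.44 in e14tg2a (1.22).

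The largest difference of all was on the Y chromosome. Eif2s3y, which encodes a subunit of the initiation factor eIF2, was at 0.136 FPKM in Dnm1l-/- against 33.0 FPKM in e14tg2a (-4.90). The helicase gene Ddx3y was at 0.0121 FPKM in Dnm1l-/- against 3.59 in e14tg2a (-2.18). Of the 9 genes on the Y-linked list only these 2 passed the filter, and Uty, a histone demethylase gene below it, was listed at 0 FPKM in Dnm1l-/- and at 2.31 FPKM in e14tg2a. Fis1-/- cells had 0.0834 and 0.0178 FPKM of Eif2s3y and Ddx3y, and Mff-/- cells 46.8 and 4.17 FPKM, so Dnm1l-/- and Fis1-/- were low and Mff-/- and e14tg2a high. Of 6 X-linked partners of Y genes 0 reached 2-fold (median 0.18), and Eif2s3x was at 110 FPKM in Dnm1l-/- and 87.5 FPKM in e14tg2a (0.33). Erdr1 and Mid1, which lie at the boundary of the region that the X and Y chromosomes share, were at 92.8 and 352 FPKM in Dnm1l-/- against 408 and 1067 FPKM in e14tg2a (-2.12 and -1.60). On the X chromosome 24 of 343 genes (7%) were higher by 2-fold or more and 5 lower, with a median of 0.11. Over all compared genes 2.51% were higher and 2.1% lower. The 24 include the 5 compared Rhox genes, of which Rhox1 and Rhox7 passed the filter only through libraries of knockouts.

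Other genes with the largest differences belonged to no list. On the higher side C1qtnf9, a secreted C1q-like protein gene, was at 12.7 FPKM in Dnm1l-/- against 0.147 FPKM in e14tg2a (3.58). Napsa, an aspartic protease gene, was at 127 FPKM in Dnm1l-/- against 15.1 in e14tg2a (2.99). Serpinb6c, a serpin gene, was at 72.6 FPKM in Dnm1l-/- against 8.20 in e14tg2a (3.0). Sult5a1, a sulfotransferase gene, was at 10.01 FPKM in Dnm1l-/- against 0.442 in e14tg2a (2.93). Arl14epl was at 16.1 FPKM in Dnm1l-/- against 1.3 in e14tg2a (2.89). The serine protease gene Htra1 was at 31.7 FPKM in Dnm1l-/- against 4.09 in e14tg2a (2.68). On the lower side the growth factor gene Mdk was at 40.8 FPKM in Dnm1l-/- against 204 in e14tg2a (-2.30). Srgn, the core protein gene of a secretory granule proteoglycan, was at 0.323 FPKM in Dnm1l-/- against 5.19 in e14tg2a (-2.23). The ATP-gated channel gene P2rx3 was at 0.209 FPKM in Dnm1l-/- against 4.53 in e14tg2a (-2.19). The calcium channel subunit gene Cacnb3 was at 1.57 FPKM in Dnm1l-/- against 9.56 in e14tg2a (-2.04). The transcription factor gene Spic was at 1.03 FPKM in Dnm1l-/- against 6.48 in e14tg2a (-1.88). Ramp2, which encodes a partner of peptide hormone receptors, was at 0.354 FPKM in Dnm1l-/- against 3.96 in e14tg2a (-1.87). Cphx2 and Eif3j1 were near 0 in Dnm1l-/- (0.0150 and 0.0378 FPKM) against 3.23 and 20.1 FPKM in e14tg2a, and both have near-identical copies, so their values are uncertain.

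Among 794 genes with at least 100 FPKM in either library 11 were higher and 16 lower past 2-fold, where counting error is small. Beside those already described, the higher ones included Apoc1, Nifk, Pgrmc1 and Sgk1. The apolipoprotein gene Apoc1 was at 222 FPKM in Dnm1l-/- against 82.4 FPKM in e14tg2a (1.42). The nucleolar protein gene Nifk was at 182 FPKM in Dnm1l-/- against 62.6 in e14tg2a (1.53). The heme-binding protein gene Pgrmc1 was at 105 FPKM in Dnm1l-/- against 39.98 in e14tg2a (1.37). The kinase gene Sgk1 was at 110 FPKM in Dnm1l-/- against 42.4 in e14tg2a (1.36). The lower ones included Fscn1 and Apela. The actin-bundling gene Fscn1 was at 46.6 FPKM in Dnm1l-/- against 121 in e14tg2a (-1.36). Apela, a peptide hormone gene of stem cells on chromosome 8, was at 40.9 FPKM in Dnm1l-/- against 103 in e14tg2a (-1.32).

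Differences were related to base composition. Across 10659 genes with a known GC content the Spearman correlation of the difference with GC was -0.33, a description over genes that share both libraries. In 10 bins of equal size by GC, the median was 0.15 in the bin with the lowest GC (34.4 to 42.1%) and -0.22 in that with the highest (58.5 to 72.8%), with the other bins in order between them. Median GC was 50.1% in the higher genes, 54.8% in the lower genes and 50.7% over all genes. With each difference taken relative to genes of like GC, the medians were -0.62 for stress effectors, -0.49 for serine and 1-carbon genes, -0.61 for amino acid transporters and -0.29 for tRNA synthetases. They were 2.47 for 2-cell-like genes, 0.66 for germline genes, -0.68 and -0.60 for the stretches of chromosomes 2 and 6 and -0.29 for chromosome 8, so all of these kept their sign with GC taken into account.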

How the data were processed

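RNA of 4 lines was sequenced, and the authors deposited 1 table with an FPKM value per RefSeq transcript and library, per the file headers. The submitters' processing notes name StringTie 1.3.3b, mm10, STAR 2.5.2b, R 3.6.1 and FastQC 0.11.5 without giving their roles. Transcript lengths are another unit in that table, per the file headers. Each FPKM is relative to its own library, and the FPKM sum was 620692 in Dnm1l-/- and 623303 in e14tg2a. The column named for the protein Drp1 was matched to Dnm1l-/-. Of 33818 transcripts, 565 lacked a symbol and 562 of these were named by gene identifier or accession. FPKM was summed per symbol, symbols with a protein-coding transcript that averaged 1 FPKM or more were kept, and differences of log2(FPKM + 1) were taken with Python 3.11, pandas and numpy, in steps tested on simulated data. Values of low genes lay within 0.15 of a whole fragment in 86.4% and 84.6% of cases, too few for a count test. GC content came from GENCODE M21 transcripts and promoters from RefSeq (GRCm38.p6). Members and 70 gene lists were chosen with earlier results of these data known, so counts over lists are descriptions. Genes named were the targeted genes, the 25 largest differences each way, the 6 largest of each list, the 10 largest each way among genes with 100 FPKM and the 5 largest noncoding ones each way and members of lists of 30 or fewer. Tmem92, Dppa2, Dppa4, Sycp3, Ddx4, Phlda2, Plagl1, Vldlr, Uty and the chromosome bins were chosen after their values were seen. Some genes that the rule names are not reported here. Alternatives were another pseudocount, other filters on low values, other scalings, protein-coding transcripts alone, GC bins and, added after seeing the data, leaving out low chromosome regions.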

Additional observations from a re-analysis of the deposited data

Results flagged for a closer look

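These genes were at least 2-fold from e14tg2a in opposite directions in Dnm1l-/- and Mff-/- (differences of log2(FPKM + 1), against the same control library). The difference between the knockouts was not tested. Higher in Dnm1l-/- and lower in Mff-/- were Napsa (2.99 in Dnm1l-/- and -1.34 in Mff-/-), Fmr1nb (2.69 and -1.34), Dio3 (1.88 and -1.53), S100a1 (1.74 and -1.79), Nid1 (1.69 and -1.13), Gpc3 (1.54 and -1.0), Ptch1 (1.3 and -1.32) and Zbtb38 (1.23 and -1.03). Lower in Dnm1l-/- and higher in Mff-/- were Aass (-2.78 and 1.25), Tcf15 (-2.43 and 1.04), Cldn6 (-2.16 and 1.02), Pck2 (-1.64 and 1.17), Dppa3 (-1.57 and 1.26), Adm2 (-1.56 and 1.03), Ccnd1 (-1.49 and 1.07), Nupr1 (-1.28 and 1.39), Cdkn1c (-1.15 and 1.03) and Rpl39l (-1.13 and 2.01). They include 4 genes of the stress and amino acid lists, Aass, Pck2, Adm2 and Nupr1.

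Outside the protein-coding genes compared, 5 noncoding RNAs were furthest above e14tg2a. They were Zscan4a (3.0), Gm13580 (2.37), Gm5039 (1.90), 4930500J02Rik (1.82) and E030011O05Rik (1.56). Zscan4a, a relative of the Zscan4 genes without a coding entry in the table, was at 12.1 FPKM in Dnm1l-/- and 0.644 FPKM in e14tg2a, and reads may be divided among its near-identical copies. Of 58 noncoding symbols of 200 bases or less 31 were listed at 0 in 1 of the 2 libraries, and their levels were not compared.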

How the results depend on the processing

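No paired analysis was possible because each genotype has 1 library, and leaving out a replicate was not possible either. With 0.1 FPKM added in place of 1, 391 genes were higher and 380 lower in Dnm1l-/-, and with a mean of at least 5 FPKM required, 143 and 131 of 7325. No named gene past 2-fold changed sign. Of the list medians 20 changed sign under at least 1 setting, each within 0.11 of 0 in the values given, such as extraembryonic endoderm (0.11, and -0.06 without the filter), Notch and Hedgehog (0.07, and -0.02 without the filter) and Wnt genes (-0.11, and 0.01 within GC bins). The other settings gave 257 to 287 higher and 183 to 230 lower genes. The lowest of these, 183, came without chromosome 8 and the low bins, which was tried only once the bins had been seen. Of 699 recomputed medians of 70 lists 678 stayed within 0.25 of the value given, as did 4168 of 4213 values of named genes within 1.5-fold. Without the filter the medians were 0.74 for 2-cell-like, 0.33 for germline and 0.06 for Rhox genes. With 1 library a side, depth limits only counting error, and the spread between cultures is unknown.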
